A study of Mus musculus with 9 samples.

Results

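The cells described here were 74 wells of a plate-based single-cell RNA-seq experiment on the mouse ventral midbrain that held RNA of Otx2 or of its opposite-strand transcript Otx2os1 together with RNA of Neurod6, Cxcl12 or Pgm5. They were 5.07% of the 1460 wells kept on 7 plates and 12.2% of the 608 kept wells with a count of Otx2 or of Otx2os1. A well was a member if it held at least 1 count of Otx2 and Otx2os1 together, and at least 2 counts of Neurod6, Cxcl12 and Pgm5 together, and if this second sum was higher than the sum of Pappa, Jag1 and Lgr5. These measured values chose the members, so the 8 genes are described without a test.

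Cells came from VGAT-Cre:Ai14:Pitx3-GFP mice, dissected at E16.5 (embryonic day, E16 in the labels) or P0.5 (postnatal day, P0 in the labels) and sorted singly into plates of 384 wells. All plates share this genotype: Cre driven by VGAT (Slc32a1) turns on tdTomato from the Ai14 allele, which stays on in any cell that has ever expressed VGAT, and GFP from Pitx3 marks dopamine neurons. The 7 plates used held cells sorted for tdTomato (VGAT plates): 4 came from E16.5 brains and 3 from P0.5 brains. A further 2 plates, of cells with tdTomato and GFP, were left out by the rule. Brains from several litters were used per stage, and the labels do not tie a plate to a brain, so p-values measure the spread between plates.

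Total counts of the kept wells ranged from 1434306 to 5403472 per plate and the median per well from 7587 to 34751. P0.5 replicate 1 kept only 44 of 384 wells and P0.5 replicate 2 was the shallowest plate. The median count of members was below that of the other kept wells on 5 of 7 plates, by most on E16.5 replicate 3 (12619 against 17884). Each plate carries a second stage label inside its well names, and for 4 plates (E16.5 replicates 3 and 4, P0.5 replicates 1 and 3) it names the other stage. Comparisons within plates do not use the stage, and the stage values below are also given for the plates with 1 stage in both labels, of which only 1 is a P0.5 plate.

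Otx2 is a homeodomain transcription factor that patterns the midbrain and is kept in neurons of the ventral tegmental area (VTA), a midbrain region that holds dopamine, GABA and glutamate neurons. Neurod6 is a neuronal basic helix-loop-helix factor known from cortical pyramidal cells and from a subset of VTA dopamine neurons. Cxcl12 is a chemokine that guides migrating neurons through its receptor Cxcr4, and Pgm5 is a phosphoglucomutase-like protein of cell adhesion sites. GABA neurons of the ventral midbrain arise elsewhere in part and migrate in, and are set apart by selector factors such as Gata2, Gata3 and Tal1. Position was not measured here, so membership says nothing of whether a cell lay in the VTA.

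Among the genes of the rule, Neurod6 carried most of the choice. It had a count in 71 of 74 members (95.9%), with a median of 7 and a maximum of 36 counts per well, and in 4.18% of the 1386 other kept wells. Pgm5 had a count in 35 members (47.3%, against 1.30% of the others). Cxcl12, which gives the group part of its name, had a count in only 20 members (27.0%, against 0.289%). Otx2 itself was present in 72 members and Otx2os1 in 61. Of the genes on the other side of the rule, Pappa had a count in 13 members, Jag1 in 13 and Lgr5 in 1. Otx2 (chr14:48657677-48673819, minus strand) and Otx2os1 (chr14:48668708-48870683, plus strand, both in GRCm38) overlap on opposite strands. Since the sources used here do not state whether counting used the strand, their reads may not be separable.

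**Figure D1:**
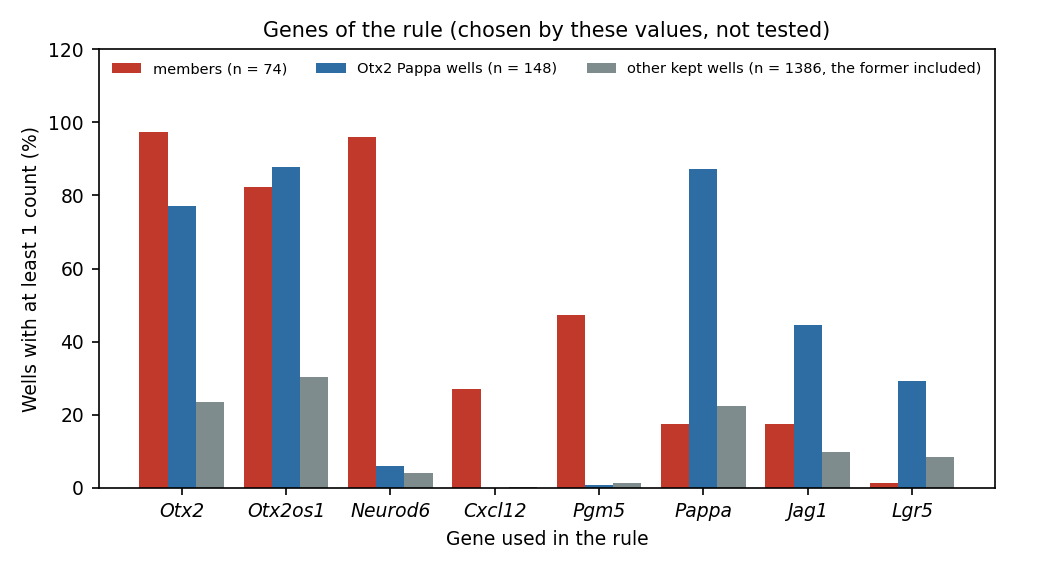
Share of wells in percent (vertical axis) with at least 1 count of each gene of the rule (horizontal axis), for the 74 members (red), the 148 Otx2 Pappa wells (blue) and the 1386 other kept wells (grey, the blue ones included). Neurod6 reaches 95.9% of members, Pgm5 47.3% and Cxcl12 27.0%, and the shares follow from the rule.

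Levels were computed as CPM (counts of a gene in the summed wells of a plate over all counts of these wells, on the usual scale of CPM and adjusted by TMM factors) for the 6 plates with at least 3 members. Neurod6 ranged from 304 to 769 CPM in members (median 648), and from 2.16 to 13.0 CPM in the other kept wells (median 3.89). Otx2 ranged from 214 to 485 CPM in members (median 447), and from 61.6 to 93.4 CPM in the others. Cxcl12 reached 19.0 to 53.6 CPM in members (median 37.2) and at most 1.78 CPM in the others. Pgm5 reached 30.3 to 125 CPM (median 65.1) and at most 1.48 CPM. For these 4 genes no plate's members overlapped with any plate's other wells, as the rule requires in large part.

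The sequence just upstream of the 3 positive genes is shown because their counts define the members. Each line gives the 250 bases before the start of the gene in RefSeq (GRCm38.p6), 5′ to 3′ on the gene's strand, with matches to the E-box CANNTG, the letters bound by basic helix-loop-helix factors, in capitals. Neurod6 lies at chr6:55681264-55681513 (minus strand), Cxcl12 at chr6:117168285-117168534 (plus strand) and Pgm5 at chr19:24861843-24862092 (minus strand).
Neurod6: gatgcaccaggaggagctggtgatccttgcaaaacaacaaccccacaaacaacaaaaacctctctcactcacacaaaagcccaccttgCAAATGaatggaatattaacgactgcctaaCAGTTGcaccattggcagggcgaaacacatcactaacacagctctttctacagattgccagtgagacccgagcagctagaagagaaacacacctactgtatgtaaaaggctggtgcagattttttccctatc
Cxcl12: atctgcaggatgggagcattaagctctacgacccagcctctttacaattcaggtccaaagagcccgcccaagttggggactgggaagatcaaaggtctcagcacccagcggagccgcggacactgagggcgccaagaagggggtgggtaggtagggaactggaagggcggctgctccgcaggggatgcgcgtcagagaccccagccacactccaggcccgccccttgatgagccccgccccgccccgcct
Pgm5: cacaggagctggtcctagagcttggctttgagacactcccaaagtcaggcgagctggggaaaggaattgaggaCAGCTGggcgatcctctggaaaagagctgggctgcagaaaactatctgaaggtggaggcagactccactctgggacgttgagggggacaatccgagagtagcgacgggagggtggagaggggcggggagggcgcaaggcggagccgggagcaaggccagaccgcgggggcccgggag
The Neurod6 window held 2 E-box matches (CAAATG and CAGTTG), the Pgm5 window 1 (CAGCTG) and the Cxcl12 window 0. E-boxes are short, and 66.2% of the 32851 promoter windows of the same table hold at least 1. The letters TAATCC of OTX factors, searched on both strands, matched none of the 3 windows and are present in 6.25% of all windows. These matches describe the letters in these windows and no binding was measured.

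Members were found on all 7 plates. The E16.5 plates held 8 (4.21% of kept wells), 10 (4.39%), 17 (5.61%) and 28 (9.18%) in replicates 1 to 4, and the P0.5 plates 3 (6.82%), 6 (2.74%) and 2 (1.17%) in replicates 1 to 3. The mean share was 5.85% ± 2.31 (SD, n = 4 plates) at E16.5 and 3.58% ± 2.92 (SD, n = 3 plates) at P0.5. This difference was within the spread of the plates (exact permutation test over plates, two-sided, p = 0.286, where the smallest p that 4 plates against 3 can give is 0.0571). With every well thinned to 4000 counts and the rule applied again, the shares were 4.25% ± 1.86 (n = 4) and 1.69% ± 0.584 (n = 3), with no overlap of the stages (exact permutation p = 0.0571, the smallest possible). Replicate 4 of E16.5 had the highest share and the exact 95% interval of each single plate was wide, most so for P0.5 replicate 1 (1.43% to 18.7%, from 3 of 44 wells). On the plates with 1 stage in both labels (E16.5 replicates 1 and 2, P0.5 replicate 2) the shares gave a difference (P0.5 minus E16.5) of -1.56 percentage points. Intervals cover counting error only.

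**Figure D2:**
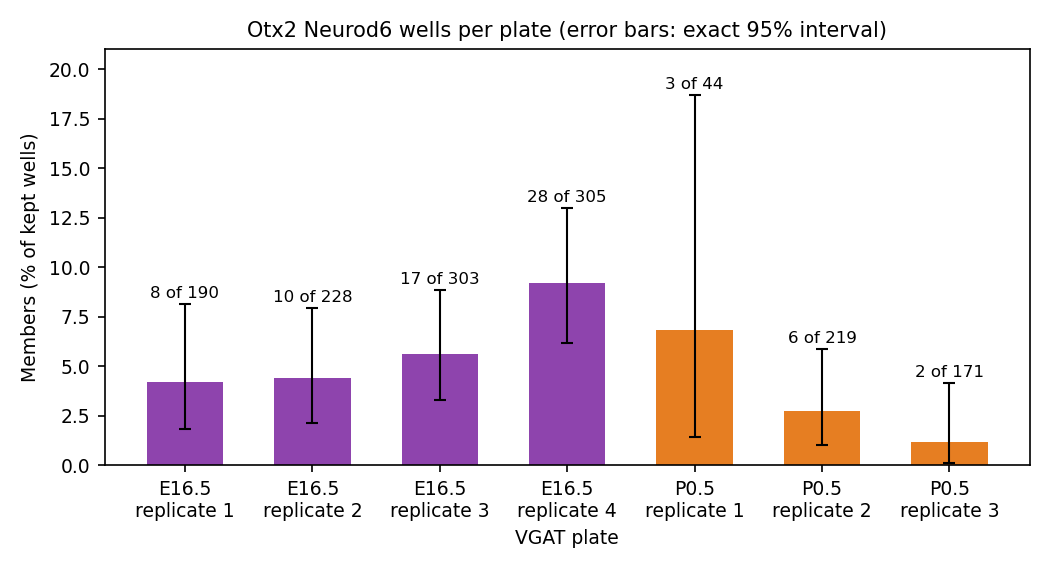
Members as a percentage of kept wells (vertical axis) on each VGAT plate (horizontal axis), with exact 95% binomial intervals as error bars and the number of members of kept wells above them; E16.5 plates are purple and P0.5 plates orange. The shares run from 1.17% to 9.18% and the intervals of the stages overlap.

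The members were uneven in which of the 3 genes they held. Of the 74, 34 held Neurod6 alone, 17 Neurod6 and Pgm5, 15 all 3 genes, 5 Neurod6 and Cxcl12, and 3 Pgm5 alone. Every well with Cxcl12 therefore also held Neurod6. The median depth was 12589 counts in wells with Neurod6 alone, 15539 with Neurod6 and Pgm5, and 18544 with all 3 genes. The part of depth in this unevenness was not tested. Satb1, a chromatin-organising factor, had a count in 33 of the 34 wells with Neurod6 alone and in all 15 wells with the 3 genes. The 3 wells with Pgm5 alone had Satb1 in 2, Foxa2 in 1 and Nfix in 1.

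The wells just inside and just outside the rule were set side by side, with no test. Of the 9 members with exactly 2 counts, 8 held Satb1, 7 Prox1, 7 Foxa2 and 7 Nfix. Of the 16 wells that failed with 1 count, 7 held Satb1, 6 Prox1, 4 Foxa2 and 7 Nfix. Another 8 wells had at least 2 counts but no Otx2 or Otx2os1, and 6 of these held Satb1, 5 Prox1, 2 Foxa2 and 4 Nfix. A further 4 wells failed because their Pappa, Jag1 and Lgr5 counts were as high or higher.

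Satb1 and Nt5e are further markers of these cells that the rule does not use. No test value is given for them, since they were proposed from the same data. Satb1 (chr17:51736187-51833290) ranged from 704 to 1883 CPM in members (median 1511), and from 41.5 to 69.9 CPM in the other kept wells (median 57.2). It was present in 72 of 74 members, and in 38.7% of the other wells. Nt5e, which encodes the ectoenzyme that makes adenosine from AMP, had a count in 33 members (44.6%, against 2.09% of the others), but its level went from 0 to 78.0 CPM over plates (median 23.1).

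Wells were then clustered without the 8 genes of the rule, as a description. The rule was chosen with earlier results of these data known, so the clusters are not independent evidence for the group. Of 22 clusters, 1 cluster of 73 wells held 69 of the 74 members (93.2%), and members made up 94.5% of it. It drew wells from all 7 plates and held 1 Otx2 Pappa well. The remaining 5 members lay in 4 other clusters. The genes that led the cluster by the ratio of means were 9030622O22Rik, Kcnab1, Satb1, Ebf1, Plekhg1, Gm38048, Ddc, Tmem163, Nfix and Foxa2. Leiden clustering, a higher resolution and more neighbours each gave a cluster of 73 wells with 69 members too.

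For the comparison of members with all other kept wells of the same plates, the wells of each kind were added up per plate. The sums of 6 plates, with 72 members, entered a quasi-likelihood test of edgeR that had the plate as a block. Of 9682 genes tested, 354 were higher in members (3.66%) and 451 lower (4.66%) at an adjusted p under 0.05, and the median log2 fold change of all genes was -0.01. Among all genes tested, called or not, the plates of both kinds did not overlap for 142 with members higher (1.47%) and for 237 with members lower (2.45%), of which 121 and 195 were called. Wells were chosen by their RNA, so these calls describe genes found together with those of the rule. A set of 200 genes changed 4-fold in simulated counts of this comparison was recovered to 91.5%.

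The transcription factor Foxa2 and most NFI factors were higher in members. Foxa2, a forkhead factor of the floor plate and of dopamine neurons, ranged from 124 to 409 CPM in members (median 319) and from 14.1 to 46.0 CPM in the other wells (median 21.5). It was higher by 3.61 ± 0.18 (log2, SE) with an adjusted p of 1.07e-12, and no plate overlapped. In wells thinned to 4000 counts, Foxa2 was present in 73.7% ± 12.3 of members and 6.08% ± 2.96 of the others (SD, n = 6 plates). The long non-coding RNA 9030622O22Rik, which lies 2673 bases from Foxa2 on the same strand, reached 162 to 1715 CPM (median 825) against 6.67 to 77.6 CPM (log2 fold change 4.72 ± 0.23, adjusted p 7.42e-13).

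Of the 4 NFI factors, which act in neuronal differentiation, 3 were higher, against 3.66% of all genes tested. Nfix ranged from 504 to 1660 CPM in members and from 77.1 to 163 CPM in the others, a log2 difference of 3.52 ± 0.18 (adjusted p 1.88e-12). Nfia was higher by 3.09 ± 0.16 and Nfib by 3.03 ± 0.16, again with no overlap of plates. Nfic did not pass, at a log2 fold change of 0.05 ± 0.29 (adjusted p 0.97). Prox1, a homeodomain factor of differentiating neurons, ranged from 95.1 to 955 CPM in members (median 573) against 28.2 to 92.7 CPM (3.25 ± 0.18, adjusted p 4.14e-12). Bhlhe22, a basic helix-loop-helix factor, was higher by 2.57 ± 0.28 (adjusted p 5.52e-07). Its relatives Neurod1, Neurod2 and Neurod4 were too low to be tested, with a count in 1, 1 and 0 of the 74 members. The zinc finger factors Bcl11b (log2 fold change -2.40 ± 0.31) and Bcl11a (-1.53 ± 0.25, adjusted p 1.61e-04) were lower. Bcl11b was at -3.18 without E16.5 replicate 3.

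A list of 15 genes came from the study's own GABA-VTA clusters, which were drawn from these samples, so it is not independent evidence. Of the 15, 9 were higher in members and 4 lower, with a median log2 fold change of 2.67. Of all genes tested, 3.66% were higher and 4.66% lower. The counts and the median of the list include Satb1, a marker proposed from these data. The higher ones were 9030622O22Rik, Satb1, Foxa2, Nfix, Prox1, Nfia, Nfib, Tcerg1l (2.67 ± 0.16) and Megf11 (1.31 ± 0.27, adjusted p 0.00159), the last not called under the stricter rule of at least 2 of the 3 genes (0.33, adjusted p 0.607). The lower ones were Gata3, Npas3 (-1.04 ± 0.15), Dach1 (-1.02 ± 0.24) and Pcdh9 (-0.77 ± 0.12). In thinned wells the shares of members with a count were larger for Pcdh9 (95.4% against 81.9%) and Npas3 (77.9% against 66.8%). They were smaller for Gata3 (33.3% against 67.4%) and Dach1 (13.3% against 24.1%). Dach1 lost the call in spliced counts (adjusted p 0.0787), without E16.5 replicate 4 (-0.79, adjusted p 0.0747) and without the plate block (adjusted p 0.0771), and Npas3 lost it without the block (adjusted p 0.116).

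Outside these lists, the largest differences by the naming rule were in genes of varied function. Upp1, a uridine phosphorylase, ranged from 43.7 to 72.7 CPM in members and from 0 to 1.38 CPM in the others (6.43 ± 0.45, adjusted p 2.88e-10), and its difference was 7.04 without E16.5 replicate 3. Erg, an ETS factor best known from blood vessels, ranged from 57.1 to 103 CPM against 0.741 to 3.55 CPM (5.40 ± 0.33, adjusted p 1.99e-11). Of the 5 endothelial and mural markers, Cldn5, Flt1 and Pdgfrb had no count in members, and Pecam1 and Rgs5 had a count in 1 member each. Kcnab1, a beta subunit of potassium channels, reached 304 to 947 CPM against 14.9 to 41.5 CPM (4.61 ± 0.24). Plekhg1, a guanine nucleotide exchange factor, was higher by 4.68 ± 0.24 and Slc24a4, a sodium-calcium exchanger, by 4.37 ± 0.51. Gm38048 (4.33 ± 0.23) overlaps Kcnab1 on the same strand and C230085N15Rik (4.61 ± 0.33) lies inside Satb1 on the same strand, so the reads of each pair may not be separable.

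**Figure D3:**
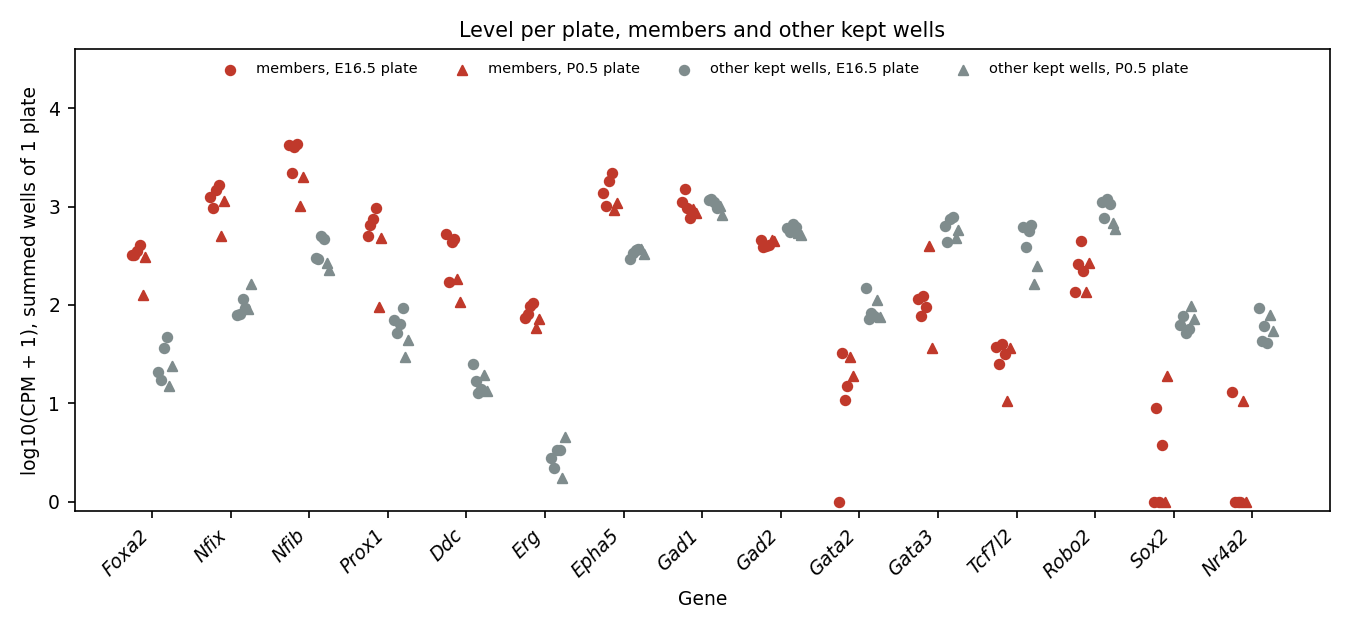
Level per plate as log10(CPM + 1) (vertical axis) of 15 genes (horizontal axis) in the summed members (red) and the summed other kept wells (grey) of 6 plates; circles are E16.5 and triangles P0.5 plates. Foxa2, Nfix, Nfib, Prox1, Ddc, Erg and Epha5 lie higher in members on every plate, Gad1 overlaps, and Gad2, Gata2, Gata3, Tcf7l2, Robo2, Sox2 and Nr4a2 lie lower on every plate.

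The GABA identity of the label was checked on the genes for making and loading GABA. Gad1, a GABA-synthesising enzyme, had a count in 72 of 74 members, and its level of 771 to 1514 CPM (median 958) overlapped with the 819 to 1192 CPM of the other wells (log2 fold change -0.05 ± 0.12, adjusted p 0.907). Gad2 was slightly lower, at 389 to 460.5 CPM against 510.4 to 658 CPM (-0.47 ± 0.13, adjusted p 0.0204), and was no longer called without any one of the 4 E16.5 plates (adjusted p 0.0572 to 0.118). Slc32a1, the vesicular GABA transporter whose promoter drives Cre here, was found in 50 members (67.6%, against 85.4% of the others). Its level was 66.8 to 464 CPM (median 118) against 166 to 287 CPM (median 225), and the difference of -0.57 ± 0.21 did not pass (adjusted p 0.118). It did pass with all wells, members included, thinned to at most the median depth of the plate's members (-0.67, adjusted p 0.046). It also passed under 5 of the other alternatives. Of the 7 genes of the list 0 were higher and 1 lower, against 3.66% and 4.66% of all genes tested. The vesicular glutamate transporters Slc17a6 and Slc17a7 had no count in the 74 members, which allows a count in up to 4.05% of wells and sets no limit on cells that express them. Slc17a8, of the same family, had a count in 2 members (2.70%, against 4.83% of the others), neither of them on the 6 plates of the tests.

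Of 6 genes of dopamine synthesis and transport, Ddc alone was high enough to be tested. Ddc, the aromatic amino acid decarboxylase that makes dopamine from L-DOPA and serotonin from its precursor, ranged from 107 to 527 CPM in members (median 307) and from 11.7 to 24.2 CPM in the others (4.37 ± 0.24, adjusted p 3.77e-12). In thinned wells it was present in 56.5% ± 24.9 of members and 4.65% ± 1.95 of the others (SD, n = 6 plates). Th, the enzyme before it in the pathway, had counts in 1 of 74 members. The transporters Slc6a3 and Slc18a2 and the dopamine neuron factor Pitx3 had none. Of 9 factors of the dopamine lineage 4 were tested. Foxa2 and En2 (1.88 ± 0.21, adjusted p 6.94e-07) were higher, En1 was not (0.37 ± 0.29, adjusted p 0.593), and Nr4a2 was lower. Foxa1, a forkhead factor too low to be tested, had a count in 28 members (37.8%, against 5.05% of the others), and in thinned wells in 15.6% ± 12.6 against 2.12% ± 0.382 (SD, n = 6 plates), higher on 4 of 6 plates. The dopamine receptor Drd2 was not called (0.82 ± 0.41, adjusted p 0.306), with a count in 25.7% of members and 10.3% of the others, and in 3.59% and 3.04% in thinned wells. Nr4a2, an orphan nuclear receptor that dopamine neurons need, was at 0 CPM on 4 of 6 plates and at most 12.1 CPM in members, against 40 to 91.5 CPM in the others (adjusted p 1.06e-06). With 3 counts in all members, its level was 4.53% of that in the other wells (exact interval 0.933% to 13.3%).

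The GABA selector factors were split. Gata2 and Gata3, zinc finger factors that set the GABA fate in the midbrain, were lower in members: Gata3 ranged from 35.7 to 399 CPM (median 105) against 439 to 774 CPM (-2.27 ± 0.26), and Gata2 from 0 to 31.8 CPM against 71.0 to 148 CPM (-2.42 ± 0.34). Tal1, which acts with them, was about even at 95.1 to 267 CPM against 125 to 182 CPM (0.15 ± 0.16, adjusted p 0.709). Zfpm2, a cofactor of GATA proteins, was also not called (-0.43 ± 0.16, adjusted p 0.126). It passed as lower without a filter (-0.55, adjusted p 7.85e-04), and in thinned wells had a count in a larger share of members (88.4% ± 15.7 against 63.0% ± 5.48, SD, n = 6 plates). Sox14 (-2.71 ± 0.38) and Lhx1 (-1.82 ± 0.37, adjusted p 0.00149) were lower, at -3.32 and -2.62 without P0.5 replicate 1, where Lhx1 was highest in members (162 CPM). Over the 8 of 10 list members that were tested, 0 were higher and 4 lower, with a median of -1.44. Of all genes tested, 3.66% were higher and 4.66% lower.

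Factors known from other ventral midbrain GABA types were lower or not called. The other kept wells include cells of these types, so lower values in 1 separate group are in part built into the comparison. Of 11 tested, 0 were higher and 8 lower, against 3.66% and 4.66% of all genes. Their median was -2.08 against -0.01 for all genes. Tcf7l2, the transcription factor of Wnt signalling, ranged from 9.51 to 39.0 CPM in members against 162 to 645 CPM (-4.04 ± 0.21, adjusted p 1.74e-12). Otx1 (-2.75 ± 0.34), Sox21 (-2.78 ± 0.41) and Six3 (-2.11 ± 0.35) were lower too. Six3 was at -2.86 without P0.5 replicate 1. Pax5 was not called at -0.79 ± 0.25 (adjusted p 0.0528), and passed as lower under 9 alternatives (-0.77 to -1.72). Foxp2 was not called (-0.25 ± 0.21, adjusted p 0.622), though it had a count in 75.7% of members and 33.9% of the other wells.

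Among the genes named for the largest decrease, Sox1 and Sema3a had no count in members. Sox1, a SOXB1 factor, had 459 counts in the other wells of the 6 plates and was at least 8.07-fold lower in members, taking 3 counts over the members as the limit. Sema3a, a secreted repulsive guidance cue, had 368 counts in the others and was at least 6.47-fold lower. Sox2, of the same family as Sox1, had 4 counts in members, or 0 to 17.9 CPM against 50.2 to 97.1 CPM (-4.18 ± 0.45). Sox2 lies inside Sox2ot on the same strand. Tfap2b, an AP-2 factor, was lower too (-4.29 ± 0.46, and -3.67 without E16.5 replicate 4). Lamp5, a membrane protein of endosomes, had 2 counts in members, 4.43% of its level in the others (exact interval 0.536% to 16.1%, adjusted p 1.60e-05). Pld2, a phospholipase, had 1 count, 3.93% of the others' level (0.0994% to 22%, adjusted p 2.22e-04). The genes Gm45455 (-4.54 ± 0.27), Gm45341 (-4.41 ± 0.27) and Gm45323 lie on the minus strand of chromosome 8 and the first pair overlaps. Gm45323 had 2 counts in members, 1.55% of the others' level (0.188% to 5.61%).

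Called guidance and adhesion genes were mostly lower. Of all genes tested, 3.66% were higher and 4.66% lower, with a median of -0.01. Of 13 Slit, Robo and semaphorin genes tested, 0 were higher and 9 lower, with a median of -1.50. Robo2, a receptor for Slit proteins, ranged from 133 to 448 CPM in members against 589 to 1198 CPM (-1.95 ± 0.18, adjusted p 5.00e-08). Nrp1, a semaphorin receptor, was lower (-1.50 ± 0.20), as were the ligands Sema3c (-3.48 ± 0.45) and Slit3 (-3.04 ± 0.42). On the list of netrin and its receptors 7 genes were tested, and the netrin gene Ntn1 was too low to be. The repulsive receptor Unc5c was lower (27.8 to 288 CPM against 290.1 to 471 CPM, -2.42 ± 0.29). Dscaml1, listed beside Dscam, was higher (1.01 ± 0.17), and whether it acts in netrin signalling was not tested. The receptors Dcc and Dscam were tested and not called. Without E16.5 replicate 3 Unc5c was at -3.23. In the Eph and ephrin list 1 gene was higher and 5 were lower of 12. Epha5 was the one higher, at 932 to 2192 CPM against 294 to 369 CPM (1.99 ± 0.15, adjusted p 1.06e-09), while Epha6 (-2.02 ± 0.23) and Ephb1 (-1.35 ± 0.19) were lower. Of 13 cadherins 0 were higher and 8 lower, among them Cdh13 (-1.97 ± 0.21) and Cdh8 (-1.71 ± 0.20).

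Signalling genes were called in both directions, where 3.66% of all genes tested were higher and 4.66% lower. Of the 4 neuropeptides high enough to be tested, the precursor genes Pnoc (-1.84 ± 0.29), Npy (-1.75 ± 0.33) and Penk (-1.72 ± 0.33) were lower. The mu opioid receptor Oprm1 was higher, at 17.9 to 68.2 CPM against 11.9 to 34.3 CPM (1.18 ± 0.30, adjusted p 0.0127), and lost the call without E16.5 replicate 3 and under the stricter rule. The nociceptin receptor Oprl1 (-0.83 ± 0.20) and the muscarinic receptor Chrm2 (-0.67 ± 0.21, adjusted p 0.0444) were lower. Oprl1 lost the call under the stricter rule (adjusted p 0.114) and at the members' depth (adjusted p 0.0549), and Chrm2 lost it under 10 alternatives (-0.46 to -0.74, adjusted p 0.0508 to 0.372). The receptors of Cxcl12 could not be tested: Cxcr4 had a count in 1 of 74 members, and Ackr3 in 0. Of the adenosine genes besides Nt5e, the kinase Adk was higher (0.86 ± 0.26, adjusted p 0.0357), a call lost under 10 alternatives (0.46 with adjusted p 0.692 in spliced counts, and without any one of 5 of the 6 plates), and the receptor Adora1, with a count in 4 members, was not called (-1.31 ± 0.60, adjusted p 0.242, and -2.19 without E16.5 replicate 4). None of the 3 tested Notch pathway genes was called. The calcium-binding proteins Calb1 (-2.12 ± 0.38) and Calb2 (-2.16 ± 0.39) were lower. Calb2 was at -3.43 without P0.5 replicate 1, and without the plate block Calb1 (adjusted p 0.331) and Npy (adjusted p 0.208) were not called.

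Among 13 channel genes, 2 were higher and 3 lower, against 3.66% and 4.66% of all genes tested. Kcnc2, a fast potassium channel, ranged from 17.9 to 48.7 CPM in members against 137 to 177 CPM (-2.07 ± 0.21). Kcnip4, a channel-binding protein, was higher at 884 to 3961 CPM against 696 to 1099 CPM (1.40 ± 0.17), but in the deposited table of spliced counts its log2 fold change was 0.01 (adjusted p 0.991). Kcnmb2 (0.88 ± 0.15) kept its size in the spliced counts and lost its call (adjusted p 0.25). Of 7 genes of maturing neurons tested, 0 were higher, against 3.66% of all genes tested, of which 4.66% were lower. The lower ones on this list were Syt1 (497 to 666 CPM against 1240 to 1480 CPM, -1.16 ± 0.11), Nefl (-1.0 ± 0.20) and Slc12a5 (-0.95 ± 0.19). Of 5 genes of immature neurons, Sox4 (-1.28 ± 0.15) and Tubb3 (-0.40 ± 0.12, adjusted p 0.0323) were lower, and Dcx was not called (-0.11 ± 0.12). Tubb3 lost the call without E16.5 replicate 1 (adjusted p 0.102), 3 (0.167) or 4 (0.166), without wells of high depth (0.0596) and without the plate block (0.271).

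Meningeal, erythroid and dividing cell markers had no count in the 74 wells, nor had the glutamate neuron markers Slc17a6 and Slc17a7, while Slc17a8, which is not on that list, had a count in 2. Oligodendrocyte markers were seen in 2 members, endothelial and mural markers in 2 and microglial markers in 6, each with 1 count per well in all. Astrocyte and radial glia genes were seen in 29 members (39.2%) against 60.4% of the other wells, with Aqp4 at 0, and their summed level ranged from 12.3 to 502 CPM in members and from 92.1 to 592 CPM in the others. Within this list Slc1a3 (6.76% against 2.67%), Fabp7 (13.5% against 9.38%) and Sox9 (16.2% against 9.88%) had a count in a larger share of members than of other wells. The part of other cell types in the results was not tested. Dopamine neuron markers were seen in 1 member (2 counts of Th) and in 7.65% of the other wells.

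A narrower comparison set the members against the 148 Otx2 Pappa wells, which mirror the rule: Otx2 or Otx2os1 present, and at least 2 counts of Pappa, Jag1 and Lgr5 together and more than of Neurod6, Cxcl12 and Pgm5. Both groups hold Otx2 or Otx2os1 by construction (Otx2 itself had a count in 72 of 74 members and 114 of 148 Otx2 Pappa wells), so this asks how 2 kinds of such wells of the same plates differ. Of 6136 genes tested over the 6 plates, 168 were higher in members (2.74%) and 235 lower (3.83%). Among all genes tested, called or not, the plates of both kinds did not overlap for 68 with members higher (1.11%) and for 93 with members lower (1.52%). The members' sums are those of the first comparison, so the results are not independent of it.

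Plekhg1 again stood out, at 58.6 to 409 CPM in members against 0 to 12.3 CPM (4.95 ± 0.24, adjusted p 1.51e-09). Nos1, the neuronal nitric oxide synthase, ranged from 135 to 423 CPM against 4.35 to 27.3 CPM (4.66 ± 0.27, adjusted p 1.25e-08). The transcription factor Zeb2 ranged from 352 to 831 CPM against 3.04 to 55.5 CPM (4.33 ± 0.22). Sv2b, a synaptic vesicle glycoprotein, ranged from 79.8 to 263 CPM against 4.11 to 11.2 CPM (4.32 ± 0.30), whereas its relative Sv2c was lower in members (5.42 to 19.3 CPM against 72.9 to 189 CPM, -3.48 ± 0.30). Maf, a leucine zipper factor, was higher by 3.51 ± 0.34 and Upp1 by 3.88 ± 0.47 (4.92 without E16.5 replicate 3), and Ddc by 3.17 ± 0.26. Against all other wells the log2 fold changes were 2.77 ± 0.24 for Nos1, 2.63 ± 0.20 for Zeb2, 3.82 ± 0.26 for Sv2b and 2.77 ± 0.22 for Maf.

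The factors that marked members against all wells were in part shared by the Otx2 Pappa wells. Foxa2 was at 127 to 398 CPM in members and 48.6 to 179 CPM in Otx2 Pappa wells (1.33 ± 0.16, adjusted p 3.44e-05), higher on 6 of 6 plates but with overlapping ranges. Prox1 was higher by 1.74 ± 0.31 (adjusted p 0.00132, and 0.121 without the plate block) and Nfib by 1.40 ± 0.16, also with overlap. Nfia (2.5 ± 0.21) and Nfix (2.10 ± 0.16) did not overlap. Foxa2 (0.68) and Nfib (0.60) kept their direction and lost the call when the rule was applied to thinned wells. Megf11, called higher against all wells, was not called here and had the opposite sign (-0.76 ± 0.29, adjusted p 0.166), and passed as lower under 5 alternatives (-0.84 to -2.13). En2 was higher (2.18 ± 0.28), as were Tcerg1l (2.93 ± 0.19), Epha5 (2.22 ± 0.19), Bhlhe22 (2.11 ± 0.35) and Kcnip4 (2.25 ± 0.35).

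Lower in members than in Otx2 Pappa wells were Robo2 (132 to 432 CPM against 861 to 1851 CPM, -2.51 ± 0.19), Pcdh9 (1140 to 1896 CPM against 2872 to 7671 CPM, -1.85 ± 0.15) and Cdh13 (39.1 to 232 CPM against 604 to 1979 CPM, -2.95 ± 0.25). The inhibitor of basic helix-loop-helix factors Id4 (-3.27 ± 0.27), the glutamate receptor Grm8 (-2.97 ± 0.24), the heparan sulfate enzyme Ndst3 (-3.43 ± 0.29) and the zinc finger factor Tshz2 (-3.48 ± 0.32) were lower as well. Gata2 (-2.38 ± 0.38) and Gata3 (-2.0 ± 0.31) were lower here too, and Tal1 was not called (-0.29 ± 0.17, adjusted p 0.447). Six3 (-2.69 ± 0.45) and Lmo1 (-2.70 ± 0.32) were lower among the factors of other GABA types. Of 6 GABA synthesis and transport genes tested, none was called, where 2.74% of all genes tested were higher and 3.83% lower. Gad2 was at -0.43 ± 0.14 (adjusted p 0.0834) and passed as lower under 4 alternatives (-0.50 to -0.66). Gad1 was at -0.34 ± 0.15 (adjusted p 0.269) and passed as lower without a filter (-0.43, adjusted p 0.0271), under the stricter rule (-0.68, adjusted p 0.00905) and under the thinned rule (-0.84, adjusted p 0.0293). Without P0.5 replicate 1 Six3 was at -3.49.

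**Figure D4:**
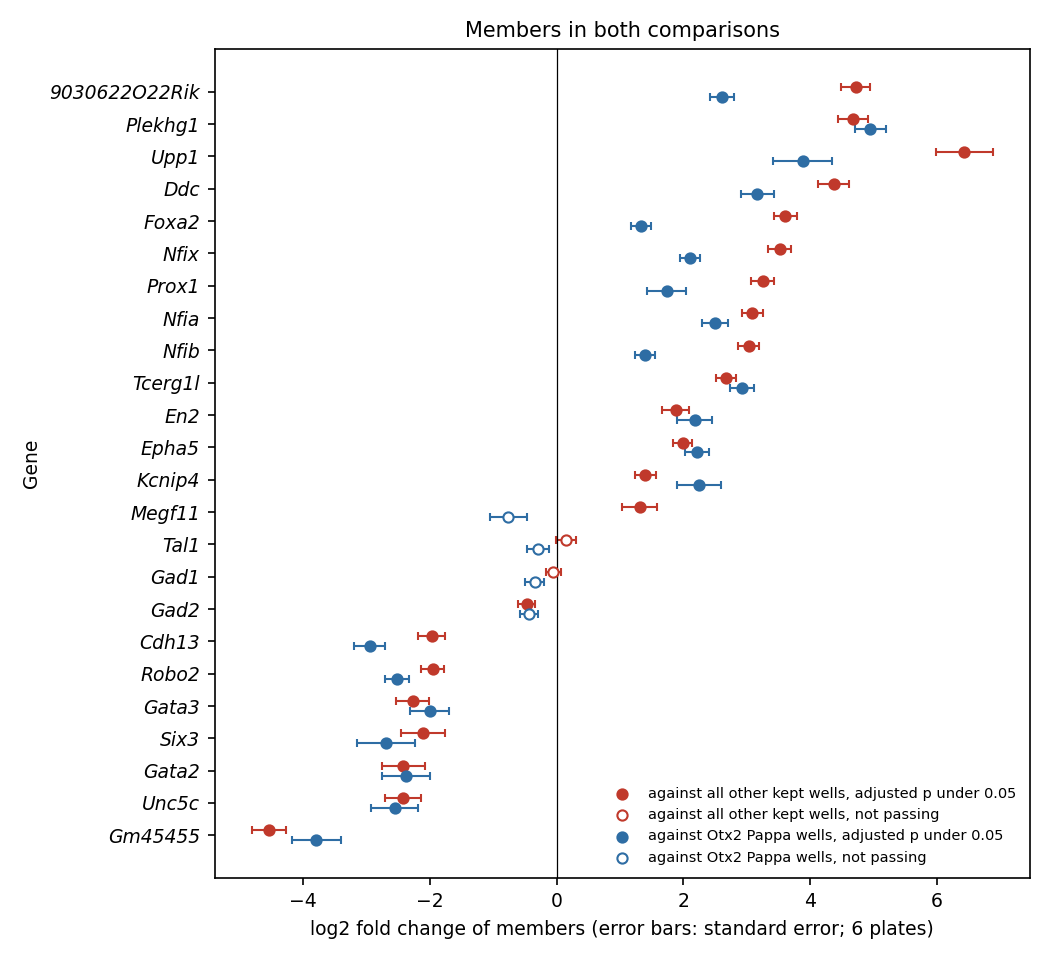
Log2 fold change of members (horizontal axis, standard error as bars, 6 plates) for 24 genes (vertical axis) against all other kept wells (red) and against the Otx2 Pappa wells (blue); filled points have an adjusted p under 0.05. Foxa2 goes from 3.61 to 1.33 and Nfib from 3.03 to 1.40 between the comparisons, Gad1 (-0.05 and -0.34) and Tal1 (0.15 and -0.29) are not called, and Megf11 changes side.

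Stages could be compared on 4 E16.5 plates with 63 members and on 2 P0.5 plates with 9, with each plate's summed members as 1 replicate. Of 5497 genes tested with edgeR, 4 were higher at P0.5 (0.0728%) and 2 lower (0.0364%), while 723 had an unadjusted p under 0.05, and DESeq2 called 15 and 14. At this size 57% of simulated 4-fold changes were recovered. None of the genes in the lists was called.

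Cacna2d3, an auxiliary subunit of calcium channels, stood at 516, 215, 419 and 375 CPM in the E16.5 members of replicates 1 to 4 and at 19.6 and 0 CPM in the P0.5 members of replicates 1 and 2 (-4.81 ± 0.71, adjusted p 0.0102). Thsd7a, a membrane protein of cell migration, stood at 534, 461, 547 and 493 CPM at E16.5 and at 78.6 and 97.0 CPM at P0.5 (-2.56 ± 0.38, adjusted p 0.0102). Both were lower on each P0.5 plate than on any E16.5 plate, which held for 14.1% of all genes tested. In the other direction, where 12.3% of genes did not overlap, stood Lrp1b, a lipoprotein receptor relative, at 54.0, 102, 160.2 and 68.5 CPM against 1090 and 194 CPM (2.83 ± 0.47, adjusted p 0.0289). Zfhx3, a homeobox factor, rose from 72.0, 70.3, 151 and 95.9 CPM to 688 and 194 CPM (2.27 ± 0.41, adjusted p 0.049). Trank1 rose from 30, 78.1, 47.1 and 49.3 CPM to 187 and 329.9 CPM (2.21 ± 0.41, adjusted p 0.049). Igfbp5, an insulin-like growth factor binding protein named here only because it completes the 6 calls, was at 825 CPM on P0.5 replicate 1 and 77.6 CPM on replicate 2, within the E16.5 range of 54.0 to 108 CPM on the latter.

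Much of the stage result came from P0.5 replicate 1, which holds 3 members. Without it the P0.5 arm is 1 plate, replicate 2, as it also is on the plates with 1 stage in both labels. The spread then comes from the E16.5 plates alone and the lone plate is assumed to vary like them, so the values are given as a description. Without replicate 1, Lrp1b was at 0.95, Zfhx3 at 0.93, Igfbp5 at -0.04, Trank1 at 2.57 and Thsd7a at -2.44. On the plates with 1 stage in both labels, Lrp1b was at 1.23, Zfhx3 at 1.41, Igfbp5 at 0.26, Trank1 at 2.48 and Thsd7a at -2.38. Replicate 2 had no count of Cacna2d3 in members, so no fold is given for it.

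Whether these stage differences were particular to members was tested as the interaction of stage and membership, over the same 6 plates. Of 9682 genes, 9 were higher (0.0930%) and 9 lower (0.0930%), with 765 at an unadjusted p under 0.05 and 1 and 1 by DESeq2. The median of all genes was -0.11. Among the genes in the lists, Lhx1 and Kcnd2 were called higher and Sema6a and Chrm3 lower. In the other kept wells Cacna2d3 stayed between 180.0 and 414 CPM on all 6 plates, and the difference of differences was -5.07 ± 0.73 (adjusted p 0.00161). For Zfhx3 it was 2.57 ± 0.40 (adjusted p 0.0039): the other wells lay between 662 and 1080 CPM at both stages, and the members, low at E16.5, came up to 666 CPM on P0.5 replicate 1 and 179 CPM on replicate 2. Lrp1b gave 2.55 ± 0.47 (adjusted p 0.0188). Htr2c (4.74 ± 0.81), a serotonin receptor, and Lhx1 (3.15 ± 0.58) were high in members on P0.5 replicate 1 only, at 513 and 162 CPM. Without that plate, again with a single P0.5 plate, Lhx1 was at 1.83, Zfhx3 at 1.2 and Lrp1b at 0.86, Htr2c turned to -8.02, and Cacna2d3 kept its direction with no count in members on the plate that remained. On the plates with 1 stage in both labels Lhx1 was at 2.34, Zfhx3 at 1.38, Lrp1b at 1.04 and Htr2c at -8.58, and Cacna2d3 kept its direction. The negative values of Htr2c are fitted to a plate with no count of it in members and are no bound.

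**Figure D5:**
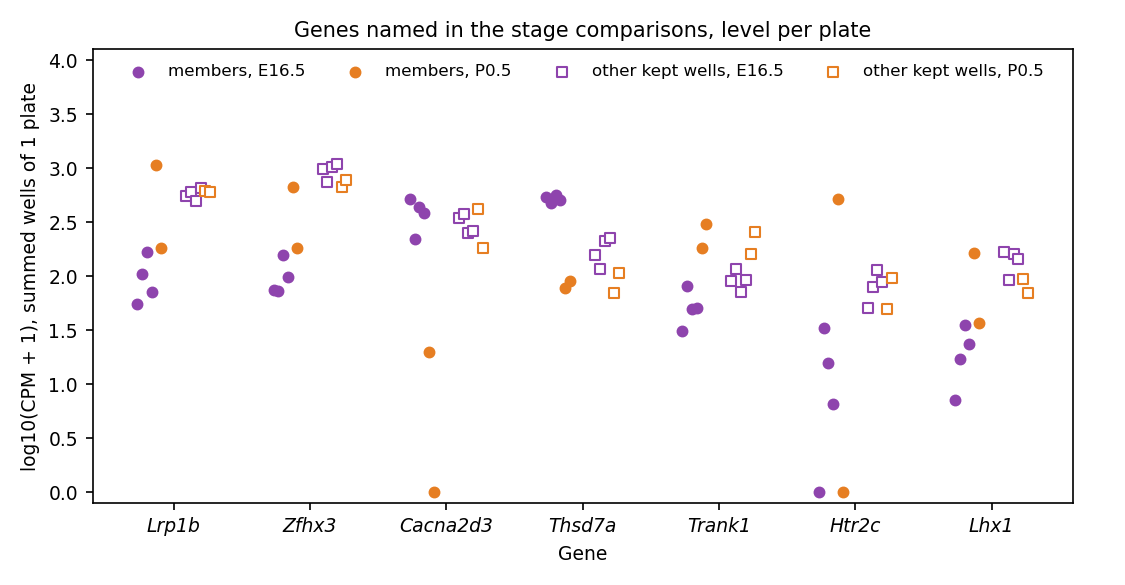
Level per plate as log10(CPM + 1) (vertical axis) of 7 genes named in the stage comparisons (horizontal axis), for members (filled circles) and other kept wells (open squares) at E16.5 (purple, 4 plates) and P0.5 (orange, 2 plates). Cacna2d3 and Thsd7a are lower in members on both P0.5 plates, and 1 P0.5 plate, replicate 1, holds the high values of Lrp1b, Zfhx3, Htr2c and Lhx1.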

How the data were processed

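Single cells were sequenced with SORT-seq, a plate-based 3′ method with molecular barcodes. Per the labels and the study's methods, reads were aligned with STAR (2.5.3a) to mouse GRCm38 (mm10) with Ensembl 93 genes. The authors deposited expected counts per gene and well, in a total and a spliced table, corrected for collisions of barcodes of 6 bases, and 51.7% of the values above 0 were not whole. Barcode length differs between the labels and the methods, and the values match the labels. Whether counting used the strand is not given in the sources used here.

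Counts were rounded to whole numbers. Wells were kept with 2000 genes or more and 50000 counts or fewer, both without spike-ins. Mitochondrial counts had to be under 15% of all counts, spike-ins included. There was no doublet caller beyond the upper limit. Members, lists and markers were chosen with earlier results of these data known. Counts were summed per plate and kind of well, on plates with at least 3 members, and tested with edgeR 4.0.16 (R 4.3.3) after its filterByExpr step and TMM scaling. The plate was a block, except between stages. The quasi-likelihood p-values were adjusted by Benjamini-Hochberg, with a threshold of 0.05. The standard error given with a log2 fold change was derived from the test, as its absolute value over the square root of the F statistic. DESeq2 1.42.0 was an alternative. Named genes were the 10 largest changes in each direction with every plate in that direction (5 between stages, with plates that do not overlap) with the 5 lowest adjusted p of the interaction and the members of the lists. The 8 genes of the rule were left out of the tests. Satb1 stayed in the tests and is counted among the calls, but no test value is given for it. Nt5e was too low to be tested. Clusters were made without the 8 genes (scanpy 1.11.5, 2870 variable genes, 40 components). The same 383 well barcodes occur on all plates by design. The code was tested on simulated data.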

Additional observations from a re-analysis of the deposited data

Results flagged for a closer look

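Dixon's test was applied to the levels in members on the 4 E16.5 plates for 94 genes, and chance flags about 1 in 20 such groups. It marked 12, and 5 of these rest on a single plate with any count: Gm45323 (4.87 CPM), Pld2 (3.97 CPM), Lamp5 (7.95 CPM), Nr4a2 (12.1 CPM) and Adora1 (13.9 CPM). Among genes with higher levels, Nfib was lowest at 2169 CPM, with the other 3 plates from 4006 to 4359 CPM. Syt1 was lowest at 497 CPM, with the others from 639.6 to 660.1 CPM. Slc24a4 was lowest at 12.1 CPM, with the others from 35.8 to 39.0 CPM. The high values were Unc5c (288 CPM), Oprm1 (68.2 CPM), Pcdh9 (1921 CPM) and Foxp2 (473 CPM).

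The stage difference of members differed from that of the other wells, by the interaction test, for Cacna2d3 (-5.07), Zfhx3 (2.57), Htr2c (4.74), Lhx1 (3.15) and Lrp1b (2.55, all log2). The test held 2 P0.5 plates. Without P0.5 replicate 1, which leaves 1, Lhx1 was at 1.83, Zfhx3 at 1.2 and Lrp1b at 0.86, Htr2c turned to -8.02, and Cacna2d3 kept its direction with no count in the P0.5 members.

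The plates sorted for tdTomato and GFP were outside the comparisons. On them 6 of 575 kept wells (1.04%, exact 95% interval 0.384% to 2.26%) met the rule. All 6 held Neurod6 and Ddc, 5 Satb1, 5 Foxa2, 5 Th, 5 Slc6a3 and 4 Pitx3. None held Cxcl12, Pgm5, Prox1 or Nt5e, and 1 held Gad1, 1 Slc32a1 and 1 Nfix. Th had a count in 64.1% of the other kept wells of these plates.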

How the results depend on the processing

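A stricter rule of at least 2 of the 3 genes left 37 members. Depth limits single wells, and the rule on wells thinned to 4000 counts left 51. The calls against all other kept wells and against Otx2 Pappa wells kept their direction for every named gene that was called, under every alternative that tested it, and 61 of 75 and 37 of 43 stayed past the threshold throughout. Among called genes not named, 3 changed sign against all others in spliced counts and 1 under the stricter rule, and 6 did against Otx2 Pappa wells under the thinned rule. Without a filter on low counts, lower genes numbered 746 against all others and 477 against Otx2 Pappa wells. Leaving out each plate gave 240 to 463 higher and 288 to 513 lower genes against all others, and 107 to 218 and 138 to 283 against Otx2 Pappa wells, with the lowest of all 4 without E16.5 replicate 4. Values not called changed sign for Gad1 (-0.14 to 0.02 over the plates left out), Foxp2 (0.15 under the stricter rule, 0.01 under the thinned rule, and called at -1.0 in spliced counts) and Nfic (-0.06 without a filter, -0.24 under the stricter rule, -0.13 under the thinned rule, -0.19 to 0.18 over the plates left out). The stage difference in share stayed negative throughout (-1.07 to -3.89 over the plates left out).

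The stage results depended on the setting, and the cause was not tested. Higher and lower genes in members at P0.5 numbered 15 and 14 by DESeq2, 51 and 97 without a filter, 8 and 5 under the stricter rule, 20 and 24 without wells above 2 times the plate median, 0 and 0 by edgeR with every plate that holds a member (471 at an unadjusted p under 0.05), and 18 and 12 on plates with 1 stage in both labels, where the P0.5 arm is 1 plate assumed to vary like the E16.5 plates, as it is wherever P0.5 replicate 1 or 2 is left out. Leaving out each plate gave 0 to 55 and 0 to 51. The replicate block gave 10 and 13, but only 2 numbers are shared by the stages, the correlations of their deviations were 0.04 and 0.09, and the numbers do not pair the plates. For the interaction the counts were 9 and 3 by RLE size factors, 1 and 1 by DESeq2, 34 and 32 without a filter, 10 and 17 in spliced counts, 6 and 2 under the stricter rule, 2 and 0 under the thinned rule, 35 and 37 without wells above 2 times the median, 3 and 6 with every plate that holds a member, 8 and 7 on plates with 1 stage in both labels, and 1 to 36 and 1 to 28 over the plates left out. Igfbp5 turned to -1.03 under the thinned rule and ranged from -0.04 (without P0.5 replicate 1) to 3.39 over the plates left out. Htr2c turned to -7.60 under the stricter rule, -7.09 under the thinned rule, -8.58 on plates with 1 stage in both labels, and ranged from -8.02 (without P0.5 replicate 1) to 6.04 over the plates left out. Without P0.5 replicate 1 the P0.5 members had no count of Htr2c, so the fitted negative value is no bound. None of the 6 genes named for the stage comparison, and none of the 5 named for the interaction, passed under every alternative.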
